A study of Danio rerio with 10 samples.

Results

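Chemokines and their receptors were examined in RNA of blood cells sorted from the adult zebrafish heart. The members were all genes whose symbol begins with cxcl, ccl, cxcr, ccr, xcr or ackr followed by a number, without regard to case. This gave 80 of the 32520 gene identifiers in the count files, of which 52 were ligands and 28 were receptors. Among the receptors 23 were conventional and 5 were atypical (ackr genes).

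Chemokines are small secreted proteins that guide the movement of leucocytes and progenitor cells along a gradient. They act through receptors that couple to inhibitory G proteins, while atypical receptors bind chemokines without this coupling and take them up. Mammalian platelets store chemokines in granules and release them on activation, and in the regenerating zebrafish heart Cxcl12 and Cxcr4 are known from the movement of cardiomyocytes and the growth of coronary vessels.

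The series holds 10 libraries of 2 experiments. In the first, cells with an eGFP reporter driven by the CD41 (itga2b) promoter, a marker of fish thrombocytes, were sorted from ventricles after amputation, from 3 pools of clo fv087b heterozygotes (clo/+) and 3 pools of wild type. The cloche locus is that of npas4l, a regulator of how blood and vessel progenitors form. In the second, cells that carried DsRed under the gata1a promoter were sorted from hearts 7 days after 4-HT (4-hydroxytamoxifen, which activates Cre-ERT2). It compared 2 libraries labelled Npas4l OE with 2 labelled control. Fish of the Npas4l OE libraries carry gata1a:Cre-ERT2 together with the transgene ubi:loxp-eGFP-stop-loxp-Npas4l, in which recombination in gata1a-expressing cells is designed to switch on npas4l. Of the controls, replicate 2 carries the same stop-cassette transgene without gata1a:Cre-ERT2. Control replicate 1 has clofv087b/+ as its genotype label, and the main counts and values of that comparison were also computed without it. Amputation is dated to 1 day in the sample labels and to 3 days in the series text, and no amputation is given for the second experiment. The sex and exact age of the adult fish are not given in the labels used here. Each library came from 6000 cells of 15 pooled ventricles, and all are labelled as platelets.

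Each library held 6764258 to 13067068 gene counts, of which 1463 to 6710 fell on members. The targeted gene npas4l was at 2.29 ± 1.55 CPM (counts scaled to library size) in clo/+ and 2.17 ± 1.63 CPM in wild type (SD, n = 3 each), and at 42.3 ± 21.1 CPM in the libraries labelled Npas4l OE and 36.2 ± 8.37 CPM in the controls (SD, n = 2 each). It did not separate the groups of either experiment, with Benjamini-Hochberg-adjusted edgeR p-values of 0.987 and 0.826. Directions therefore follow the titles. Summed thrombocyte markers were at 6216 to 10239 CPM in clo/+ and 8457 to 9779 CPM in wild type, and at 12973 to 14523 CPM with Npas4l OE and 10407 to 11817 CPM in control. Macrophage, neutrophil, erythroid, endothelial and cardiomyocyte markers had counts in the same libraries, so the sorted pools held RNA of several cell types. Summed cardiomyocyte markers were at 24421 to 38143 CPM in clo/+ and 21090 to 37943 CPM in wild type. Summed erythroid markers were at 8613 to 13540 CPM in clo/+ and 10585 to 11790 CPM in wild type. Summed lymphocyte markers were at 1.39 to 1.53 CPM in clo/+ and 0.445 to 1.49 CPM in wild type. In pools of sorted cells, fewer cells of a type and less RNA per cell cannot be told apart. All CPM values use TMM scaling factors. No transcript lengths were used, so levels are compared between libraries and not between genes.

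Most members were rare or undetected. A count was found somewhere for 71 of the 80 members, 46 ligands and 25 receptors, and 11 ligands and 11 receptors had a count in every library. In a single library 44 to 54 members had a count. The 9 members at 0 in all 10 libraries were ccl19b, ccl25a, ccl27b, ccl33.2, ccl38a.4, ccl39.4, CXCR1 and one identifier each of CCR6 (ENSDARG00000038968) and XCR1 (ENSDARG00000052988). A count of 0 allows a level of up to 0.241 to 0.445 CPM, taken as 3 counts per library, and this covers counting error only. Some members belong to groups of numbered copies, such as the 7 ccl34, 8 ccl39 and 7 cxcl11 genes, and 12 members share 6 human-style symbols. Reads may be split or lost among near-identical copies, so values of these members are uncertain. Where a symbol is shared, the gene identifier is given.

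The first comparison concerned the loss of 1 clo allele in CD41-sorted cells. No chemokine or receptor gene changed in clo/+ at an adjusted p under 0.05, where the background was 0.0145% of the 13749 genes tested. Of the members, 16 ligands and 13 receptors had enough counts to be tested, and the smallest Benjamini-Hochberg-adjusted edgeR p among them was 0.238. DESeq2 and limma-voom also called 0 members. An unadjusted p under 0.05 was found for 4 members, 13.8% of the 29 tested, against 12% of all genes. Of these, cxcl8a, ccr12a and ccr12b.1 were higher, where 7.19% of all genes were, and CXCR4 (ENSDARG00000041959) was lower, where 4.79% were lower. Groups did not overlap for 5 members, against 18.2% of all genes. In 4 of the 5 clo/+ was higher, where 9.63% of all genes were. The log2 fold change was above 0 for 20 members and below 0 for 9, where 50.2% of all genes were below 0. A gene could pass the count filter through either group alone, so counts and medians over the members tested are descriptions.

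Among the ligands, cxcl8a, a zebrafish counterpart of the human neutrophil attractant CXCL8, was at 20.6, 13.8 and 8.59 CPM in clo/+ replicates 1 to 3, against 4.45, 9.97 and 5.28 CPM in the wild-type replicates. The clo/+ libraries 1 and 2 were above every wild-type library, and clo/+ replicate 3 was below wild-type replicate 2, so the groups overlapped. The log2 fold change was 1.11 (SE 0.38) and the Benjamini-Hochberg-adjusted edgeR p was 0.254. The other cxcl8 copies had values of 0.56 (SE 0.38) for cxcl8b.1 and -0.93 (SE 0.78) for cxcl8b.3 on the log2 scale, both with overlapping groups. The copy cxcl8b.3 had 10, 14 and 8 counts in clo/+ and 10, 33 and 5 counts in wild type, too variable for a direction. The level of cxcl8b.1 was 14.3 ± 7.87 CPM in clo/+ and 9.70 ± 3.91 CPM in wild type (SD, n = 3 each).

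The ligand cxcl18b, which attracts neutrophils in zebrafish, was at 48.5, 58.0 and 73.1 CPM in clo/+ and at 43.6, 43.7 and 44.8 CPM in wild type. All clo/+ libraries lay above all wild-type libraries, which differed from each other by little more than 1 CPM. On the log2 scale the difference was 0.43 (SE 0.21), with a Benjamini-Hochberg-adjusted edgeR p of 0.437. It was the only ligand tested whose groups did not overlap.

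Levels of the CC ligand ccl34a.4 were 124, 111 and 101 CPM in clo/+ and 91.0, 196 and 106 CPM in wild type. Wild-type replicate 2 stood above all others, and the log2 fold change was -0.24 (SE 0.25) with all libraries and 0.17 without that replicate. The level of ccl38.1 was 32.6, 10.3 and 7.20 CPM in clo/+ and 24.2, 15.1 and 24.5 CPM in wild type. The clo/+ values spanned the whole wild-type range, with a log2 fold change of -0.34 (SE 0.40). The gene ccl25b, whose mammalian relative CCL25 draws T cell progenitors to the thymus, was at 9.72, 12.5 and 20.2 CPM in clo/+ and 23.9, 4.25 and 9.41 CPM in wild type. The 3 wild-type libraries were spread more widely than the clo/+ libraries, and the log2 fold change of 0.17 (SE 0.44) was -0.24 when wild-type replicate 2 was left out and -0.18 when clo/+ replicate 3 was. The CC ligand ccl36.1 had 56, 0 and 18 counts in clo/+ and 6, 1 and 43 counts in wild type, which is too variable for a direction.

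The ligands of Cxcr4 were as variable. The gene cxcl12b was at 11.1 ± 6.10 CPM in clo/+ and 8.14 ± 6.72 CPM in wild type, and the gene with the symbol CXCL12 was at 8.15 ± 2.90 CPM in clo/+ and 11.2 ± 10.4 CPM in wild type (SD, n = 3 each). Their log2 fold changes were 0.45 (SE 0.50) and -0.45 (SE 0.58). The summed CPM of all ligands was 343, 253 and 296 in clo/+ and 273, 315 and 253 in wild type. These ranges overlapped, with a two-sided exact permutation p of 0.7 where 3 libraries against 3 cannot go below 0.1. The median log2 fold change of the 16 ligands tested was 0.32, against -0.0021 over all genes. Leaving out clo/+ replicate 1 brought the ligand median to 0.0074.

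Among the conventional receptors, CXCR4 (ENSDARG00000041959), the receptor of Cxcl12, was at 43.5, 31.0 and 39.9 CPM in clo/+ and 56.6, 62.3 and 59.0 CPM in wild type. Every clo/+ library lay below every wild-type library. Its log2 fold change was -0.65 (SE 0.21), with a Benjamini-Hochberg-adjusted edgeR p of 0.238, and it stayed between -0.74 and -0.51 when each library was left out in turn. The second CXCR4 identifier (ENSDARG00000057633) was at 3.28 ± 2.15 CPM in clo/+ and 2.83 ± 2.48 CPM in wild type (SD, n = 3 each), with a log2 fold change of 0.20 (SE 0.71). Libraries of this copy were spread widely in both groups.

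The gene ccr12a, a CC receptor by its name, was at 13.2, 6.29 and 8.22 CPM in clo/+ and 5.04, 3.16 and 4.82 CPM in wild type. All clo/+ libraries were above the wild-type libraries, with a log2 fold change of 1.08 (SE 0.39) and a Benjamini-Hochberg-adjusted edgeR p of 0.285. Its copy ccr12b.1 was at 5.22, 3.79 and 5.44 CPM in clo/+ and at 1.63, 0.729 and 2.29 CPM in wild type. Here too the groups did not overlap, and the log2 fold change of 1.61 (SE 0.56) had a Benjamini-Hochberg-adjusted edgeR p of 0.264. The third copy, ccr12b.2, was at 16.4 ± 9.35 CPM in clo/+ and 13.3 ± 4.22 CPM in wild type (SD, n = 3 each), with overlapping groups and a log2 fold change of 0.30 (SE 0.36). The 3 copies share a name and may share reads, so they are not independent of each other.

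The receptor gene cxcr3.2, which acts in the recruitment of macrophages in zebrafish, was at 21.0, 20.8 and 20.2 CPM in clo/+ and 11.3, 16.3 and 18.0 CPM in wild type. The clo/+ libraries were within 1 CPM of each other and above all wild-type libraries, but the log2 fold change of 0.43 (SE 0.25) had a Benjamini-Hochberg-adjusted edgeR p of 0.506. The copies cxcr3.3, which takes up ligand without migration in zebrafish, and CXCR3 had overlapping groups and log2 fold changes of -0.32 (SE 0.48) and -0.05 (SE 0.70). CCR9 (ENSDARG00000055186), whose mammalian relative is the receptor of CCL25, was at 15.9, 18.0 and 11.8 CPM in clo/+ and 15.1, 17.1 and 19.6 CPM in wild type. The libraries were mixed, and the log2 fold change was -0.20 (SE 0.26). The CC receptor ccr8.1 also overlapped between groups, with a log2 fold change of 0.19 (SE 0.56).

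None of the 3 atypical receptors tested differed between clo/+ and wild type by more than the spread of the libraries. ACKR3 (ENSDARG00000058179), which takes up Cxcl12, was at 31.6, 34.9 and 34.8 CPM in clo/+ and 39.0, 12.4 and 37.0 CPM in wild type. Wild-type replicate 2 was far below the other 5 libraries, and without it the log2 fold change of 0.19 (SE 0.31) became -0.18. ACKR4 (ENSDARG00000040133), a scavenger of CCL19, CCL21 and CCL25 in mammals, was at 10.8, 4.39 and 10.5 CPM in clo/+ and 4.3, 9.84 and 6.54 CPM in wild type, with overlap. ACKR2, a scavenger of inflammatory CC chemokines in mammals, was at 9.88, 4.09 and 6.45 CPM in clo/+ and 2.82, 6.32 and 5.85 CPM in wild type, also with overlap. The summed CPM of all receptors was 196, 144 and 168 in clo/+ and 166, 152 and 189 in wild type, with a two-sided exact permutation p of 1.0.

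Macrophage markers stood beside these values. The summed level of the 29 macrophage marker genes was 783 to 1016 CPM in clo/+ and 547 to 618 CPM in wild type, and none of the 29 was at 0 in all libraries. Of the 22 tested, 21 had a log2 fold change above 0 in clo/+. Summed neutrophil markers were at 727 to 851 CPM in clo/+ and 780 to 851 CPM in wild type. Endothelial markers were at 1693 to 2208 CPM in clo/+ and 1731 to 2524 CPM in wild type, with 12 of 15 above 0. The part of these cells in the values of cxcl8a, cxcl18b, cxcr3.2 and the ccr12 genes was not tested.

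The second comparison set the gata1a-sorted libraries labelled Npas4l OE against those labelled control, where the level of npas4l itself did not separate the groups. No member changed at an adjusted p under 0.05 in the libraries labelled Npas4l OE, where the background was 0.0357% of the 14006 genes tested. Among the 18 ligands and 14 receptors tested the smallest Benjamini-Hochberg-adjusted edgeR p was 0.127. Limma-voom called 0 members and DESeq2 called 2, ACKR4 (ENSDARG00000040133) at an adjusted p of 0.0108 and CXCR4 (ENSDARG00000041959) at 0.0223, both lower with Npas4l OE. Of these 32 members, 26 had a log2 fold change below 0, where 50.6% of all genes did. An unadjusted p under 0.05 was found for 6 members, 18.8% of those tested against 15.5% of all genes. All 6 were lower in the libraries labelled Npas4l OE, where 9.36% of all genes were, and none was higher, where 6.11% were. They were the ligands ccl36.1 and cxcl11.4, the receptors CXCR4 (ENSDARG00000041959) and cxcr3.2, and the atypical receptors ACKR4 (ENSDARG00000040133) and ACKR2. The groups did not overlap for 18 members, against 47.8% of all genes. For 17 of the 18 the Npas4l OE libraries were lower, where 23.7% of all genes were, and for 1 they were higher, where 24.1% were. Here too a gene could pass the count filter through either group alone, so these counts are descriptions. For example, cxcl11.4 passed it through the controls, at 25 and 23 counts, against 0 and 8 with Npas4l OE. Members too low to be tested went both ways, with CXCL12 higher and CCR8 lower with Npas4l OE.

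**Figure D1:**
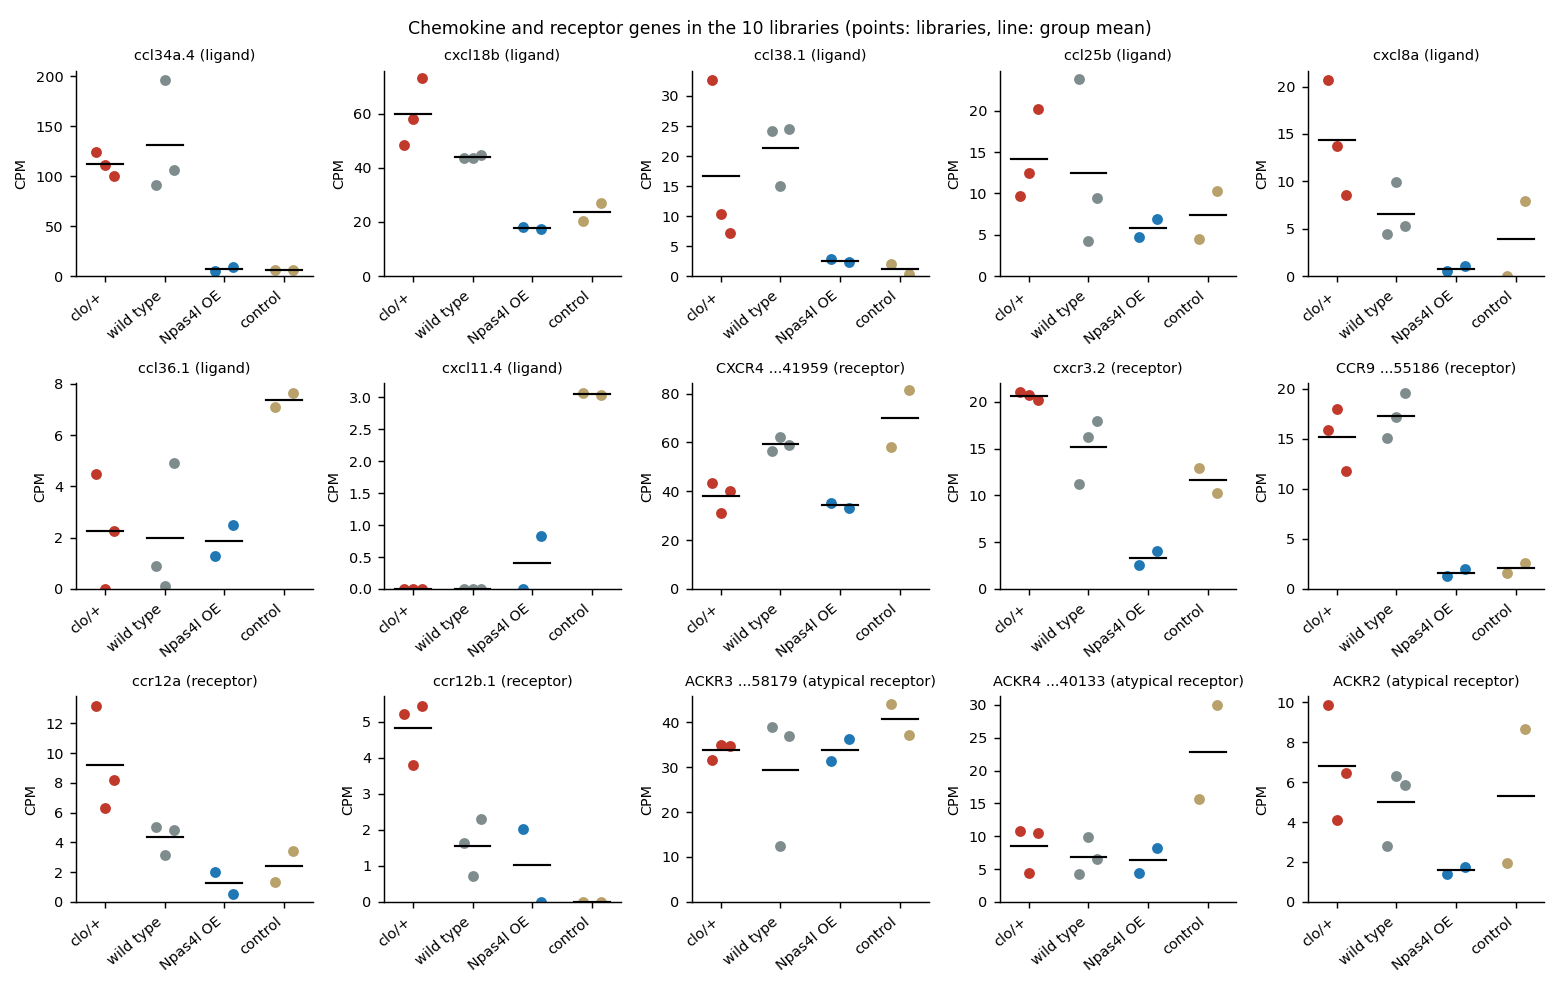
Levels in CPM of the chemokine and receptor genes given with a value in every library, with clo/+ left of wild type and Npas4l OE left of control. Points are libraries (3, 3, 2 and 2) and lines are group means; CXCR4 (ENSDARG00000041959) was lower in every clo/+ library than in wild type and in both Npas4l OE libraries than in control.

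Among the conventional receptors of the gata1a libraries, CXCR4 (ENSDARG00000041959) was at 35.1 and 33.4 CPM with Npas4l OE and at 58.0 and 81.6 CPM in control. The libraries labelled Npas4l OE were close together and below both controls. Its log2 fold change was -1.04 (SE 0.27), with a Benjamini-Hochberg-adjusted edgeR p of 0.137. Without control replicate 1 the value was -1.27, and over the 4 fits that left out 1 library it ranged from -1.27 to -0.76. This was the only member that was lower both in all clo/+ libraries than in wild type and in both Npas4l OE libraries than in control. Of all genes tested, 8.59% were lower without overlap in clo/+ and 23.7% with Npas4l OE. The share lower in both was not computed.

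The receptor gene cxcr3.2 was at 2.54 and 4.03 CPM with Npas4l OE and 12.98 and 10.3 CPM in control. The gap between the groups was wider than either spread, and the log2 fold change was -1.82 (SE 0.44) with a Benjamini-Hochberg-adjusted edgeR p of 0.130. It ranged from -2.18 to -1.53 with 1 library left out. The copies cxcr3.3 and CXCR3 were below the controls in both libraries too. The level of cxcr3.3 was 1.27 and 4.75 CPM with Npas4l OE and 4.77 and 6.32 CPM in control, so the groups barely separated, and that of CXCR3 was 0.254 and 2.17 CPM with Npas4l OE and 3.80 and 4.87 CPM in control. Their log2 fold changes were -0.88 (SE 0.65) and -1.81 (SE 0.87).

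The gene ccr2, whose mammalian relative is the receptor of CCL2 on monocytes, was at 0.254 and 7.13 CPM with Npas4l OE and 7.47 and 14.4 CPM in control. Replicate 1 with Npas4l OE was near 0 and replicate 2 stood just below the lower control. Its log2 fold change was -1.55 (SE 0.88), with a Benjamini-Hochberg-adjusted edgeR p of 0.440. In the CD41 libraries it averaged 0.244 ± 0.160 CPM in clo/+ and 0.328 ± 0.378 CPM in wild type (SD, n = 3 each), at the level of a few counts. The CC receptor ccr8.1 was one of 2 receptors with a log2 fold change above 0, at 8.29 ± 1.86 CPM with Npas4l OE and 5.89 ± 2.93 CPM in control (SD, n = 2 each), and the groups overlapped. The other was ccr12b.2, at 4.95 and 0.103 CPM with Npas4l OE and 0 and 1.84 CPM in control. Its copies were also low, with ccr12a at 2.03 and 0.516 CPM with Npas4l OE and 1.35 and 3.42 CPM in control, and ccr12b.1 at 2.03 and 0 CPM with Npas4l OE and 0 CPM in both controls. CCR9 (ENSDARG00000055186) was low in all 4 libraries, at 1.27 and 1.96 CPM with Npas4l OE and 1.59 and 2.63 CPM in control, with a log2 fold change of -0.39 (SE 0.80).

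The atypical receptor ACKR4 (ENSDARG00000040133) was at 4.44 and 8.26 CPM with Npas4l OE and 15.7 and 30.0 CPM in control. Both libraries labelled Npas4l OE were below both controls, which were far apart from each other. The log2 fold change was -1.85 (SE 0.43) and had the smallest Benjamini-Hochberg-adjusted edgeR p of the members, 0.127. Without control replicate 1 it was -2.25, and its range with 1 library left out was -2.35 to -1.29. The second ACKR4 identifier (ENSDARG00000078729), too low to be tested, was at 1.65 and 0.930 CPM with Npas4l OE. Both libraries were above the controls, at 0.735 and 0 CPM. ACKR2 was at 1.39 and 1.76 CPM with Npas4l OE and 1.96 and 8.69 CPM in control. Control replicate 1 was near the libraries labelled Npas4l OE and control replicate 2 far above them. The log2 fold change of -1.76 (SE 0.77) was -0.31 without control replicate 2, and the Benjamini-Hochberg-adjusted edgeR p with all libraries was 0.313. ACKR3 (ENSDARG00000058179) was at 31.4 and 36.4 CPM with Npas4l OE and 44.2 and 37.3 CPM in control. The groups were separated by less than 1 CPM, and the log2 fold change was -0.28 (SE 0.25).

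Among the ligands, ccl36.1 was at 1.27 and 2.48 CPM with Npas4l OE and 7.10 and 7.64 CPM in control. The controls were close together and above both libraries labelled Npas4l OE. On the log2 scale the difference was -1.97 (SE 0.56), with a Benjamini-Hochberg-adjusted edgeR p of 0.162, and it ranged from -2.51 to -1.57 with 1 library left out. The gene cxcl11.4, one of 7 zebrafish copies of the interferon-inducible Cxcr3 ligands, had 0 and 8 counts with Npas4l OE and 25 and 23 counts in control. It had no count in the 6 CD41 libraries. Its log2 fold change of -2.79 (SE 1.14) depends on how the fit treats the library at 0 and ran from -7.59 to -1.86 with 1 library left out. The lowest value came without Npas4l OE replicate 2, and its Benjamini-Hochberg-adjusted edgeR p was 0.277. The copy cxcl11.3 was at 0 and 2.17 CPM with Npas4l OE and 1.71 and 5.79 CPM in control, with overlap.

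For the other ligands given in every library the separation was small or absent. Levels of cxcl18b were 18.0 and 17.2 CPM with Npas4l OE and 20.4 and 26.9 CPM in control. Both Npas4l OE libraries were below both controls, with a log2 fold change of -0.44 (SE 0.29). The level of ccl34a.4 was 5.58 and 8.78 CPM with Npas4l OE and 6.24 and 5.79 CPM in control, and ccl25b was at 4.69 and 6.92 CPM with Npas4l OE and 4.53 and 10.3 CPM in control. Both overlapped. For ccl38.1, at 2.92 and 2.27 CPM with Npas4l OE and 1.96 and 0.395 CPM in control, the log2 fold change was 1.12 (SE 0.90), with a range of 0.40 to 2.65 when 1 library was left out, and it was the 1 member tested for which both libraries labelled Npas4l OE lay above both controls. The gene cxcl8a had 4 and 10 counts with Npas4l OE and 0 and 60 counts in control, too few for the filter. The ligand ccl35.1 was high in 1 library of each group, at 24.3 and 1.24 CPM with Npas4l OE and 3.92 and 17.6 CPM in control.

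The remaining ligands tested in the gata1a libraries had log2 fold changes from -1.93 for ccl20b, whose mammalian relative attracts cells with CCR6, to 0.04 for ccl34b.4. They included CXCL14 at -1.29 (SE 0.74), cxcl12b at -0.60 (SE 0.50), ccl34b.1 at -1.38 (SE 0.75) and ccl39.7 at -1.56 (SE 0.80). The smallest Benjamini-Hochberg-adjusted edgeR p among them was 0.388 for ccl39.7. The summed CPM of all ligands was 86.9 and 98.2 with Npas4l OE and 97.8 and 156 in control, with replicate 2 of Npas4l OE just above control replicate 1 and a two-sided exact permutation p of 0.667. The summed CPM of all receptors was 98.7 and 117 with Npas4l OE and 170 and 211 in control. These did not overlap, and the two-sided exact permutation p of 0.333 is the smallest that 2 libraries against 2 can give. The median log2 fold change was -0.92 over the ligands and -1.02 over the receptors tested, against -0.01 over all genes. With only the ligands that had at least 10 counts in every library, the ligand median was -0.35.

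**Figure D2:**
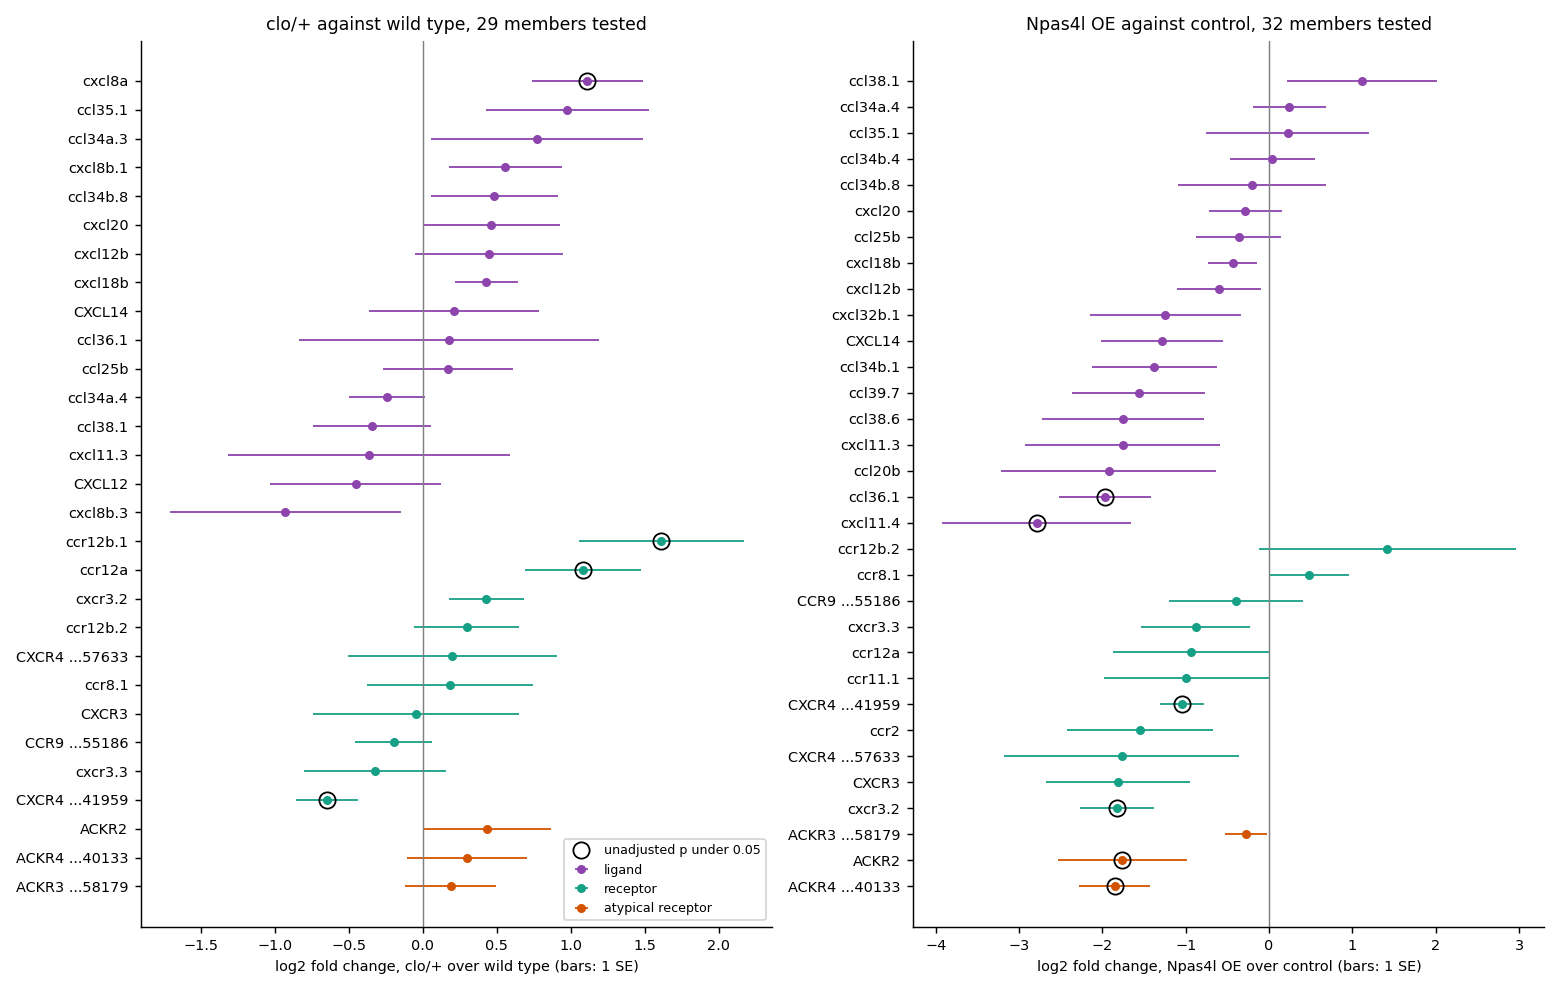
Log2 fold changes of the members tested, clo/+ over wild type (29 members) and Npas4l OE over control (32 members), from edgeR's quasi-likelihood fit, with bars of 1 SE and circles around an unadjusted p under 0.05. In clo/+ 20 members lie above 0 and 9 below, and with Npas4l OE 6 lie above and 26 below; none passed an adjusted p of 0.05.

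In the gata1a libraries several marker sums were lower with Npas4l OE, among them that of the macrophage markers. Their summed level was 368 and 1392 CPM with Npas4l OE replicates 1 and 2, and 1801 and 3306 CPM in control replicates 1 and 2. Of the 23 macrophage genes tested, 21 had a log2 fold change below 0 and 15 also an unadjusted p under 0.05, with a median of -1.62. The 4 libraries stood in the same order in 9 of the 32 members tested, where 9.52% of all genes had that order, a description chosen after the values were seen. These 9 were ccl34b.1, ccl36.1, cxcl32b.1, ccr2, ccr11.1, cxcr3.3, CXCR3, ACKR2 and ACKR4 (ENSDARG00000040133). CXCR4 (ENSDARG00000041959) and cxcr3.2 were not among them. That order was not particular to the macrophage markers, as the summed neutrophil markers stood in it too. It also requires both Npas4l OE libraries to lie below both controls. This held for 17 of the 32 members tested, against 23.7% of all genes. Summed lymphocyte markers were also lower, at 8.75 to 14.8 CPM with Npas4l OE and 21.7 to 24.1 CPM in control, as were neutrophil markers, at 310 to 318 CPM with Npas4l OE and 393 to 456 CPM in control. Summed cardiomyocyte markers were at 31982 to 33096 CPM with Npas4l OE and 53144 to 65517 CPM in control, and 15 of the 15 tested had a log2 fold change below 0. Erythroid markers were at 971 to 1018 CPM with Npas4l OE and 1137 to 2089 CPM in control, with 9 of 10 below 0 and a median of -1.85. Endothelial markers were at 876 to 962 CPM with Npas4l OE and 1203 to 1274 CPM in control, with 10 of 14 below 0. Of the cell type sums, that of the thrombocyte markers alone was higher with Npas4l OE than in control without overlap. The part of these cells in the values of the members was not tested.

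How far the values rest on single libraries differed between members. In clo/+, CXCR4 (ENSDARG00000041959), ccr12a, ccr12b.1, cxcl8a, cxcl18b and cxcr3.2 kept the sign of their log2 fold change in each of the 6 fits that left out a library. The range was 0.74 to 1.30 for ccr12a, 1.27 to 2.04 for ccr12b.1 and 0.76 to 1.55 for cxcl8a. With Npas4l OE, the 6 members at an unadjusted p under 0.05 kept their sign in all 4 such fits, but ACKR2 was -0.31 in the fit without control replicate 2. Without control replicate 1, whose genotype label is clofv087b/+, a single control is left. In that fit this control is assumed to vary like the other libraries, so only log2 fold changes are given. They were -2.25 (SE 0.38) for ACKR4 (ENSDARG00000040133), -1.27 (SE 0.21) for CXCR4 (ENSDARG00000041959) and -3.34 (SE 0.80) for cxcl8a. The gene cxcl8a, not tested with all libraries, passed the filter there through control replicate 2, at 60 counts against 4 and 10 with Npas4l OE. The control left out had 0 counts of cxcl8a, below both Npas4l OE libraries. The count filter then passes 40 members, of which 31 had a log2 fold change below 0, against 49.4% of all genes. For 26 of them both Npas4l OE replicates were lower than control replicate 2, against 39.3% of all genes. The receptor median was -1.16 and the ligand median was -0.84. The value was -1.66 (SE 0.54) for cxcr3.2, -2.03 (SE 0.69) for ccl36.1, -2.80 (SE 1.57) for cxcl11.4, -1.95 (SE 0.98) for ccr2, -2.47 (SE 0.64) for ACKR2 and -0.63 (SE 0.28) for cxcl18b. The signs of ccl34b.4 and ccl35.1 changed, to -0.13 (SE 0.60) and -0.50 (SE 1.03). Against control replicate 2 alone, the summed ligands were at 86.9 and 98.2 CPM with Npas4l OE and 156 CPM in control, and the summed receptors at 98.7 and 117 CPM with Npas4l OE and 211 CPM in control.

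**Figure D3:**
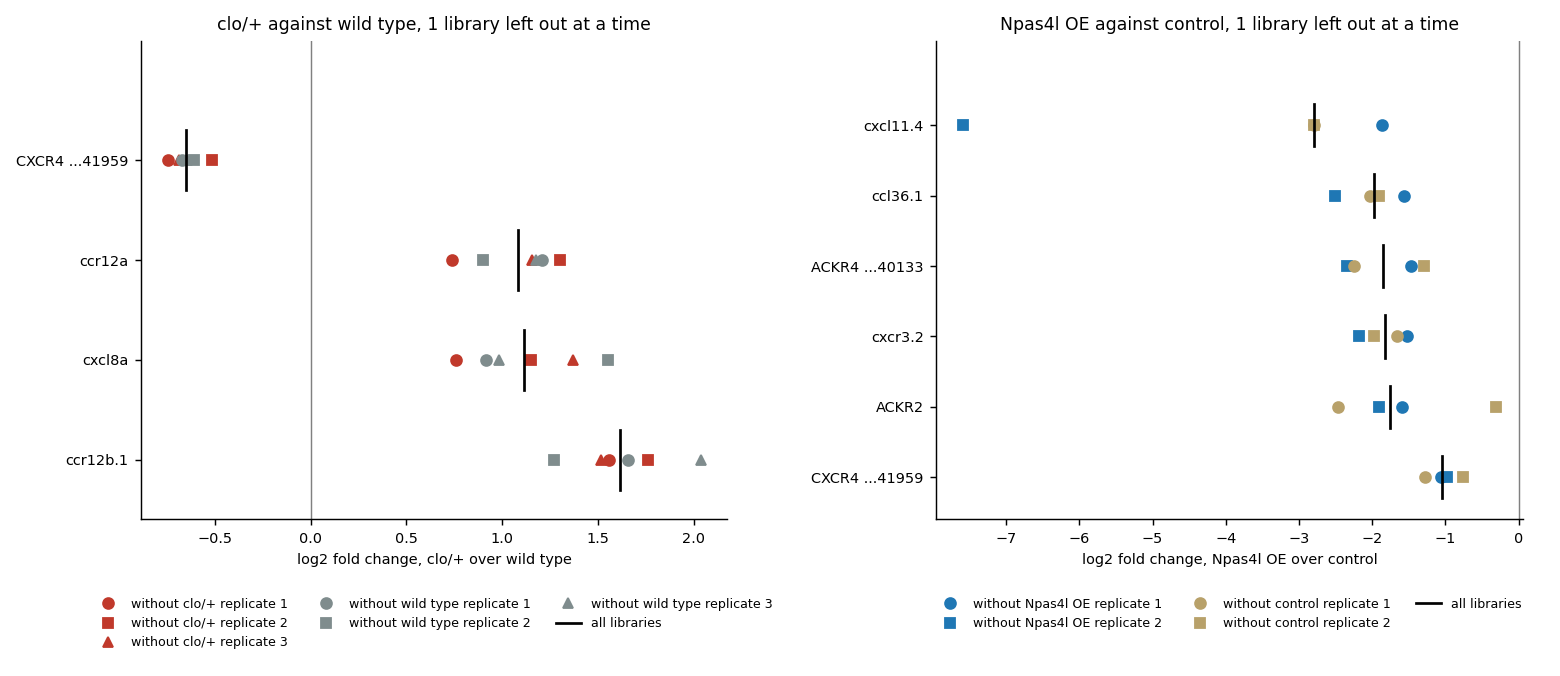
Log2 fold changes of the members at an unadjusted p under 0.05 in each comparison, when 1 library was left out at a time (symbols). Black bars mark the value of all libraries, clo/+ over wild type and Npas4l OE over control. In the clo/+ comparison CXCR4 (ENSDARG00000041959) stays from -0.74 to -0.51, and in the Npas4l OE comparison ccl36.1 stays from -2.51 to -1.57.

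Of the members, 23 were tested in both comparisons, which share no library. For 13 of them (56.5%) the log2 fold change was above 0 in clo/+ and below 0 with Npas4l OE, a pattern found in 26.6% of the 13040 genes tested in both. Without control replicate 1 it was 14 of 25 members, against 26.2% of the genes tested in both. These 13 were 7 of 11 ligands and 6 of 12 receptors. The opposite pattern was seen for 2 members, both ligands (ccl34a.4 and ccl38.1). A further 5 were below 0 in both, namely cxcl11.3, CXCR3, cxcr3.3, CXCR4 (ENSDARG00000041959) and CCR9 (ENSDARG00000055186), and 3 were above 0 in both, namely ccl35.1, ccr8.1 and ccr12b.2. None of these members passed the adjusted test in either comparison. Of all members tested, 20 of 29 were above 0 in clo/+ and 26 of 32 below 0 with Npas4l OE. These one-sided shares would by themselves give a share near 56.5%, so it does not show opposite responses of single members. Without clo/+ replicate 1, the clo/+ median was 0.0074 over the ligands and -0.056 over the receptors. The receptor cxcr3.2 showed the difference in sign most plainly, at 0.43 (SE 0.25) in clo/+ and -1.82 (SE 0.44) with Npas4l OE. The difference between the comparisons was not tested, since the reporter, the injury and the treatment differ between the experiments.

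Some members, most of them ligands, were at other levels in the CD41-sorted than in the gata1a-sorted libraries. The experiments differ in reporter, amputation, treatment and genotype at once, which cannot be told apart, so levels are given without a test. Marker sums differed too. Neutrophil markers were at 727 to 851 CPM in the CD41 and 310 to 456 CPM in the gata1a libraries. Erythroid markers were at 8613 to 13540 CPM and 971 to 2089 CPM. Endothelial and fibroblast sums were also higher in all CD41 libraries, thrombocyte and lymphocyte sums lower, and macrophage and cardiomyocyte sums overlapped. Their part in the levels was not tested. Of the 33 members that averaged at least 1 CPM, 8 were higher in all 6 CD41 libraries than in all 4 gata1a libraries, and 1 was lower. Among all genes at that level these shares were 11.9% and 8.2%. The average takes in 6 CD41 and 4 gata1a libraries, so a gene high in the CD41 libraries alone passes more easily. These counts are therefore descriptions. Below that average, ccr11.1 (0 to 0.365 against 0.380 to 1.71 CPM) and cxcl32b.1 (0 to 0.574 against 0.634 to 2.76 CPM) were also lower in all CD41 libraries. The 8 were the ligands ccl34a.3, ccl34a.4, ccl34b.8, ccl38.1, cxcl8b.1 and cxcl18b and the receptors CCR9 (ENSDARG00000055186) and ccr12b.2. The 1 lower member was the ligand ccl34b.4.

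The level of ccl34a.4 was 91.0 to 196 CPM in the CD41 libraries and 5.58 to 8.78 CPM in the gata1a libraries, a ratio of means of 18.4. Its copy ccl34a.3 had 3 to 50 counts in the CD41 libraries and none in the gata1a libraries. Another copy, ccl34b.4, was at 0 to 1.09 CPM in the CD41 libraries and 5.58 to 20.5 CPM in the gata1a libraries. Copies of the ccl34 group stood on opposite sides. CCR9 (ENSDARG00000055186) was at 11.8 to 19.6 CPM in the CD41 libraries and 1.27 to 2.63 CPM in the gata1a libraries, a ratio of 8.72. The ratio was 2.52 for cxcl18b and 10.1 for ccl38.1. It was 79.6 for cxcl8b.1, at 5.47 to 23.3 CPM in the CD41 libraries and 0 to 0.367 CPM in the gata1a libraries. The gata1a libraries together held only 5 counts of cxcl8b.1, so that ratio is uncertain. CXCR4 (ENSDARG00000041959) and ACKR3 (ENSDARG00000058179), both receptors of Cxcl12, overlapped between the experiments, at 31.0 to 62.3 CPM and 12.4 to 39.0 CPM in the CD41 libraries and 33.4 to 81.6 CPM and 31.4 to 44.2 CPM in the gata1a libraries.

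**Figure D4:**
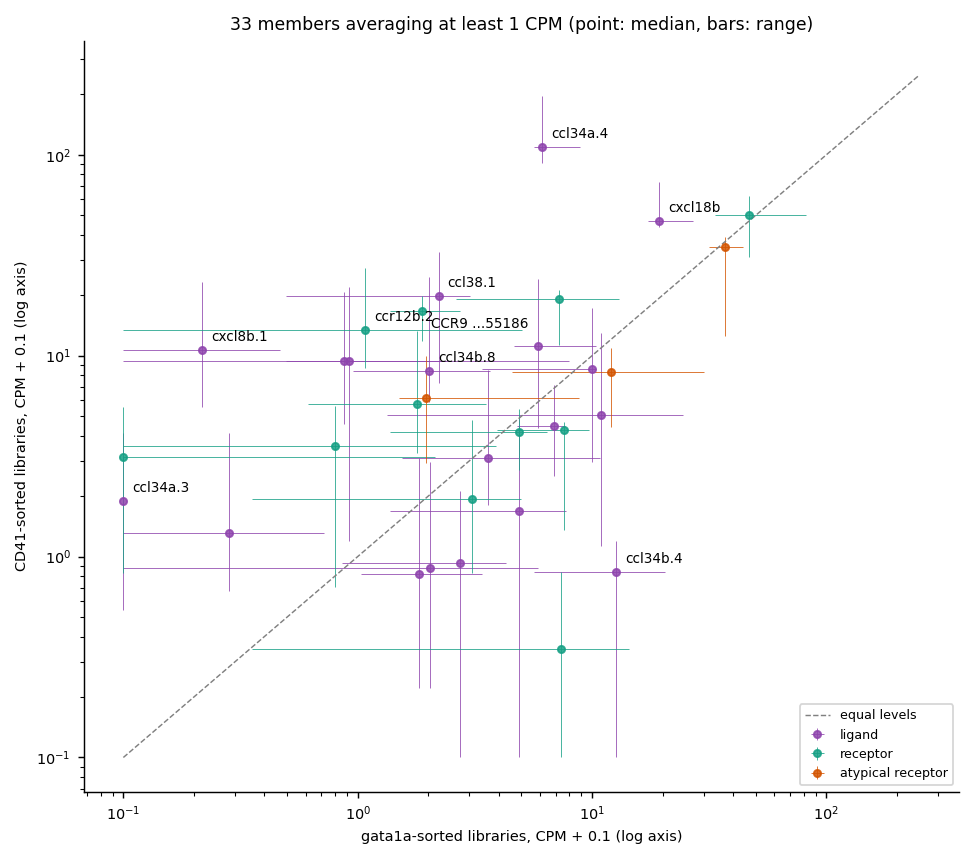
Levels of the 33 members averaging at least 1 CPM in the CD41-sorted libraries (vertical axis) and gata1a-sorted libraries (horizontal axis), as CPM + 0.1 on log axes, with points at medians and bars over the range of libraries. The ligand ccl34a.4 lies far above the line of equal levels and ccl34b.4 below it, while CXCR4 (ENSDARG00000041959) lies near it.

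Genes of the signalling chain behind the receptors were read from a list of 49 symbols. Of these, 45 were matched, 14 of them only after a copy letter or number was dropped. This gave 47 genes, which may include copies not listed. In clo/+ none of the 40 tested passed an adjusted p under 0.05. At an unadjusted p under 0.05 there were 6 higher and 7 lower genes, where 7.19% of all genes were higher and 4.79% lower, and the median log2 fold change was -0.10. The lower genes with the smallest p were PIK3CG, the catalytic subunit of PI3-kinase gamma that G protein beta-gamma subunits activate, at -0.73 (SE 0.20), ARRB2 (ENSDARG00000039215), an arrestin that turns receptors off, at -0.86 (SE 0.28), and RGS13, an inhibitor of G protein signalling, at -0.59 (SE 0.21). The higher genes were the kinase gene jak2a at 0.56 (SE 0.21), the G protein beta subunit gene gnb1a at 0.52 (SE 0.20), and ELMO2, a partner of Rac-activating DOCK proteins, at 2.43 (SE 0.96). The smallest Benjamini-Hochberg-adjusted edgeR p in the list was 0.161 for PIK3CG.

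With Npas4l OE, none of the 39 signalling genes tested passed an adjusted p under 0.05. At an unadjusted p under 0.05 there were 3 higher genes and 1 lower gene of the 39, where 6.11% of all genes were higher and 9.36% lower, and the median was 0.13. The share of higher genes was near that of all genes. The higher genes were the tyrosine kinase genes PTK2B (ENSDARG00000022841) at 1.24 (SE 0.42) and SRC at 0.72 (SE 0.25), and TIAM1 (ENSDARG00000078430), an activator of Rac, at 0.63 (SE 0.25). The lower gene was rac2, the Rac of blood cells, at -1.07 (SE 0.32), with a Benjamini-Hochberg-adjusted edgeR p of 0.176. The next lower genes were PIK3CG at -0.48 (SE 0.24) and the other TIAM1 identifier (ENSDARG00000025920) at -0.82 (SE 0.46). The signalling list had a median above 0, where the receptors tested had one below 0.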

How the data were processed

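RNA of sorted cells was primed with oligo-dT, amplified as cDNA and tagmented, per the labels' protocols, which mention no molecular identifiers. The authors deposited raw read counts per gene, 1 file per library with 5 summary lines in the form of htseq-count, which were left out; genes took 41.0% to 49.3% of the reads. The submitters' processing notes name FastQC 0.11.4, Trim Galore 0.6.0, HISAT2 2.1.0, DESeq2 1.22.1 and the build GRCz11. The counter, the annotation release and the use of strand are not given in the sources used here, so overlapping and antisense genes can share reads.

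Groups came from the sample titles, and symbols from a table that pairs identifiers with names, which named 29201 of 32520. Human-style symbols were kept as given. Listed symbols without an exact match were matched after dropping a copy letter or number, among them 6 macrophage and 7 thrombocyte symbols. The 2 experiments had a fit each in edgeR 4.0.16 under R 4.3.3 (filterByExpr with a minimum count of 10 and minimum total of 15, TMM factors, quasi-likelihood test), with Benjamini-Hochberg adjustment over all genes tested called under 0.05. A standard error is the log2 fold change over the square root of F. Replicates are pools of cells, and whether they came from separate sorts is not stated. The p-values set group differences against the spread between these pools, estimated with information shared across genes, and not against that between single fish. Replicates differed by more than counting noise, at a chi-square over its degrees of freedom of 11.04 to 43.6. Alternatives were RLE or no scaling factors, no filter or at least 10 counts in every library, DESeq2 1.42.0, limma-voom (limma 3.58.1), a joint fit of all 10 libraries, a replicate block and each library left out. The functions were tested on simulated data.

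Members given in every library averaged at least 10 CPM or had an unadjusted p under 0.05; of the signalling list, the 3 smallest p in each direction were named. Other tested members were named by group values. A planned naming of genes with a like pattern was not made, because the libraries fall into 2 experiments. Of the members, 23 were tested in both fits, 6 in clo/+ only, 9 with Npas4l OE only and 42 in neither. The members and lists were chosen with earlier results of these data known. No sequences or coordinates were used here.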

Additional observations from a re-analysis of the deposited data

How the results depend on the processing

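The number of members at an adjusted p under 0.05 in clo/+ was 0 in every setting tried, DESeq2 included. At an unadjusted p under 0.05 it was 4 of 29 tested, and 7 of 65 with DESeq2 and 8 of 65 without a filter. Over all genes the shares in these settings were 12%, 7.54% and 9.37%. With 1 library left out the number of members was 4 to 7, where the share of all genes was 8.15% to 12.98%. With Npas4l OE the number of called members, 0 in the edgeR analysis as reported, was 2 with DESeq2 (ACKR4 ENSDARG00000040133, adjusted p 0.0108, and CXCR4 ENSDARG00000041959, 0.0223), 4 without a filter (these and cxcr3.2 and ccl36.1) and 1 in one fit of all 10 libraries (cxcr3.2, 0.0275). Leaving out 1 library there leaves a single library in a group, so only log2 fold changes are given for those fits. Without Npas4l OE replicate 2 they were -5.33 for ccr2 and -7.89 for cxcl11.3. Without Npas4l OE replicate 1 that of ccl35.1 was -3.11. At an unadjusted p under 0.05 it was 6, and 14 without a filter and 5 to 17 with 1 library left out. The ligand median with Npas4l OE was -0.35 with at least 10 counts in every library and -1.02 to -0.29 with 1 library left out, the last without control replicate 2. The receptor median in clo/+ was -0.056 to 0.46 with 1 library left out, below 0 only without clo/+ replicate 1.

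Over all genes, the called genes numbered 2 in clo/+, and 211 without a filter and 114 with DESeq2. With Npas4l OE there were 5, and 648 without a filter, 388 with DESeq2, 90 with limma-voom and 110 in one fit of all 10 libraries. The cause was not tested. Without scaling factors the median of all genes with Npas4l OE was 0.18, so changes there are relative to it.

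Same-numbered libraries deviated together only weakly (r of 0.0071 to 0.0797 in the CD41 experiment and 0.0563 in the gata1a experiment). In the gata1a experiment, with 2 pairs, libraries of unlike number have the same r with the opposite sign by construction. These values cannot show whether same-numbered libraries shared a sort or batch. With the replicate block, 0 members were called in clo/+ and 1 with Npas4l OE (ACKR4 ENSDARG00000040133, adjusted p 0.0245 in edgeR). Of all genes, 120 and 187 were called with the block, against 2 and 5 without it.

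In clo/+, 185 of 194 log2 fold changes of single members under an alternative kept their sign and side of the threshold. The sign changed for ccl36.1 with limma-voom (-0.23) and without clo/+ replicate 1 (-0.83), wild-type replicate 1 (-0.15) or 2 (-0.38), over a range of -0.83 to 2.19, for ccl25b (-0.24 to 1.04), ACKR3 ENSDARG00000058179 (-0.18 to 0.45), ccl34a.4 (-0.44 to 0.17) and ccl38.1 (-1.28 to 0.0058) with 1 library left out. With Npas4l OE, 3 of 153 changed sign: CCR9 ENSDARG00000055186 (-0.72 to 0.027), ccl25b (-0.84 to 0.36) and ccl34a.4 (-0.099 to 0.54). Where a group is left with 1 library, that library is assumed to vary like the others. Counts per library limit what could be seen of the 42 members tested in neither comparison as reported; without a filter or with DESeq2, 65 members were tested in clo/+ and 63 with Npas4l OE.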

Other observations

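The members with counts that neither comparison as reported tested averaged at most 0.960 CPM over the 10 libraries. Their ligands were ccl19a.1, ccl19a.2, ccl20a.3, ccl27a, ccl33.3, ccl34b.3, ccl34b.9, ccl35.2, ccl38a.5, ccl39.1, ccl39.2, ccl39.3, ccl39.5, ccl39.6, ccl39a.10, ccl44, cxcl11.1, cxcl11.5, cxcl11.6, cxcl11.7, cxcl11.8, cxcl18a.1 and cxcl19. Their receptors were CCR6 (ENSDARG00000087474), CCR7, CCR8, CCR9 (ENSDARG00000099738), ccr10, cxcr1, CXCR5, XCR1 (ENSDARG00000054847), ACKR3 (ENSDARG00000062478) and ACKR4 (ENSDARG00000078729). CCR8, a receptor of T cells in mammals, was at 0.634 and 0.930 CPM with Npas4l OE and 1.22 and 2.11 CPM in control, and both Npas4l OE libraries were below both controls. CCR6 (ENSDARG00000087474), the receptor of CCL20 in mammals, was at 0.888 and 2.69 CPM with Npas4l OE and 0.367 and 0.132 CPM in control, above both controls. The ligand cxcl11.1, one of the Cxcr3 ligand copies, was at 0.127 and 1.03 CPM with Npas4l OE and 0 CPM in both controls, opposite to cxcl11.4. CXCL12 was higher in both libraries labelled Npas4l OE, at 2.28 and 1.03 CPM, than in the controls, at 0.612 and 0.395 CPM, and was too low there to be tested. All of them were singled out with their values known.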
